A study of Mus musculus with 3 samples.

Results

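The 811 CpG island regions with the lowest H3K27me3 signal over input in mouse colonic epithelium, low at both ages and after colitis, were described out of 13729 autosomal regions of a tiling array (5.91%). H3K27me3, trimethylation of lysine 27 of histone H3, is laid down by Polycomb repressive complex 2 and marks silenced developmental genes. CpG islands are stretches rich in CG dinucleotides that often hold promoters. Islands of expressed genes are typically free of the mark and carry H3K4me3 in its place, whereas many islands of silent genes in a differentiated tissue are covered by it.

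Each of the 3 groups of male Balb/c mice had 1 array, hybridised with chromatin pooled from 3 mice. The first group was untreated and 7 weeks old. The second was untreated and 23 weeks old. The third was 23 weeks old and had received dextran sulfate sodium (DSS), a polymer that injures the colonic epithelium, at 2% for 1 week from the age of 7 weeks. The groups are called young, older untreated and DSS below, and triplets of values are in that order. The cells came from isolated colonic crypts. Immunoprecipitated DNA was read in Cy5 and sonicated input chromatin in Cy3 on every array. No array of total histone H3 is among the samples, so a ratio is per input DNA and not per nucleosome. No gene is paired with a probe in the files and they name no genome build, so regions are given by the positions in the array files, no gene is named and the tissue could not be checked against marker genes.

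Neighbouring autosomal probes whose starts lay within 500 bp were joined, and joins of at least 3 probes made a region. The value of a region was the median log2 ratio of immunoprecipitate over input of its probes. A member had to lie in the lowest 10% of regions on the young, the older untreated and the DSS array alike. The members held 4561 of the 93029 probes in regions, and all of them are counted below without a filter on signal. Since the rule uses these ratios, their low level is a description and not a finding, and no test was made with 1 array per group. They are called low-ratio regions here, because the ratio was low in them together with the signal of both channels and most of them left the lowest 10% when signal intensity was taken into account.

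Ratios are given relative to each array's median autosomal probe. At 7 weeks the low-ratio regions ran from -4.91 to -1.56 on the log2 scale with a median of -2.15, or 4.45-fold below the median probe. In untreated mice at 23 weeks they ran from -4.68 to -1.86 with a median of -2.33, or 5.03-fold below. After DSS they ran from -4.55 to -1.29 with a median of -1.78, or 3.44-fold below. The median of all regions was -0.27, -0.40 and -0.22 in the same order. The DSS array had the narrowest spread of probe ratios, with an interquartile range of 1.56 against 1.98 in young mice and 2.56 in older untreated mice.

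**Figure D1:**
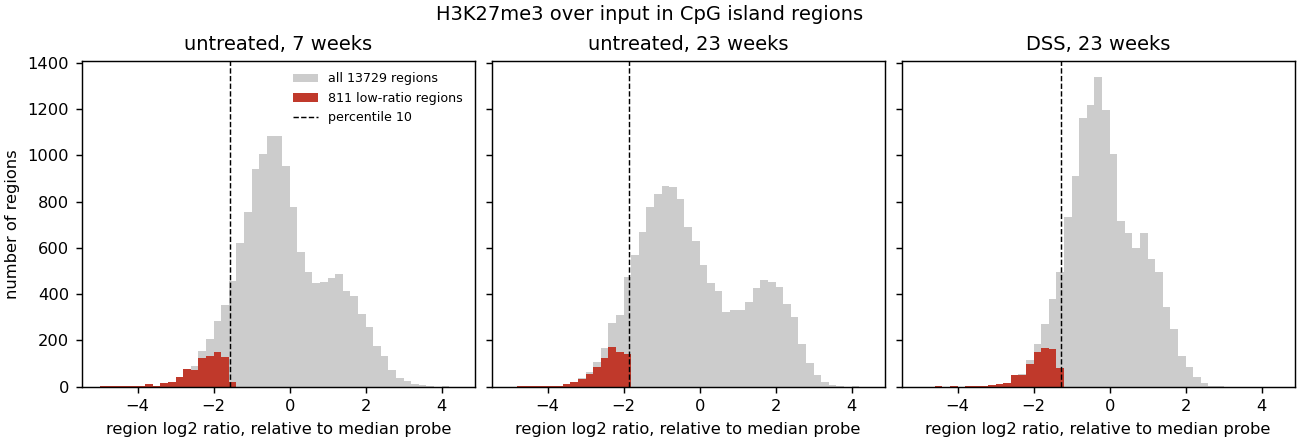
Number of regions (y axis) by region log2 ratio with the array's median probe at 0 (x axis), for all 13729 regions in grey and the 811 low-ratio regions in red on each array. The dashed line marks percentile 10, which lay at -1.56 in young mice, -1.85 in older untreated mice and -1.28 after DSS.

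The rule has no gap at its edge. Just inside it lay chr13:34044945-34045380, with percentiles of 9.99, 6.20 and 4.60 in young, older untreated and DSS-treated mice, and chr7:30271945-30272320, with 4.04, 7.42 and 9.98. Just outside lay chr5:121465050-121465649, with 10.02, 4.42 and 3.85, and chr11:100135671-100136693, with 8.03, 10.02 and 9.42. Another 520 regions were in the lowest 10% on 2 arrays and 643 on a single one, of which 151 were low in young mice only, 297 in older untreated mice only and 195 after DSS only.

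A low ratio on 2 arrays was usually found again on the array that had taken no part in the choice. Of 921 regions chosen on both 23-week arrays, 811 (88.1%, Wilson 95% interval 85.8% to 89.99%) were also in the lowest 10% in young mice, where 9.99% of all regions lay. Of 965 chosen on both untreated arrays, 84.0% (81.6% to 86.2%) were also low after DSS, and of 1067 chosen without the older untreated array, 76.0% (73.4% to 78.5%) were also low on it. The background is 9.99% on each of these arrays as well. No region chosen in this way rose above the middle of the array left out, the highest reaching percentile 38.1 in young mice, 36.1 in older untreated mice and 29.6 after DSS. The same exercise at the upper end, with regions above percentile 90, gave 92.1%, 88.4% and 91.5% for the young, DSS and older untreated array left out in turn. The arrays share their probes, so a property of a probe repeats on all of them, and the intervals cover counting error only.

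Both channels were low in the low-ratio regions, the immunoprecipitate more so. Both enter the rule, which asks for little immunoprecipitate over input, so the lower immunoprecipitate describes the choice and is not a finding. The median member lay at percentile 3.92, 4.56 and 3.96 of regions for immunoprecipitate signal in young, older untreated and DSS-treated mice. For input it lay at percentile 11.0, 17.8 and 10.7. In intensity, the immunoprecipitate of the median member was 88.8 in young mice against 725 over all regions, and its input was 374 against 674. In untreated mice at 23 weeks the values were 107 against 660 and 544 against 792, and after DSS 99.1 against 668 and 332 against 637. Of the 811, 528 (65.1%) had a mean input percentile of at most 20, as did 18.1% of all regions, and 47 had one over 50.

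**Figure D2:**
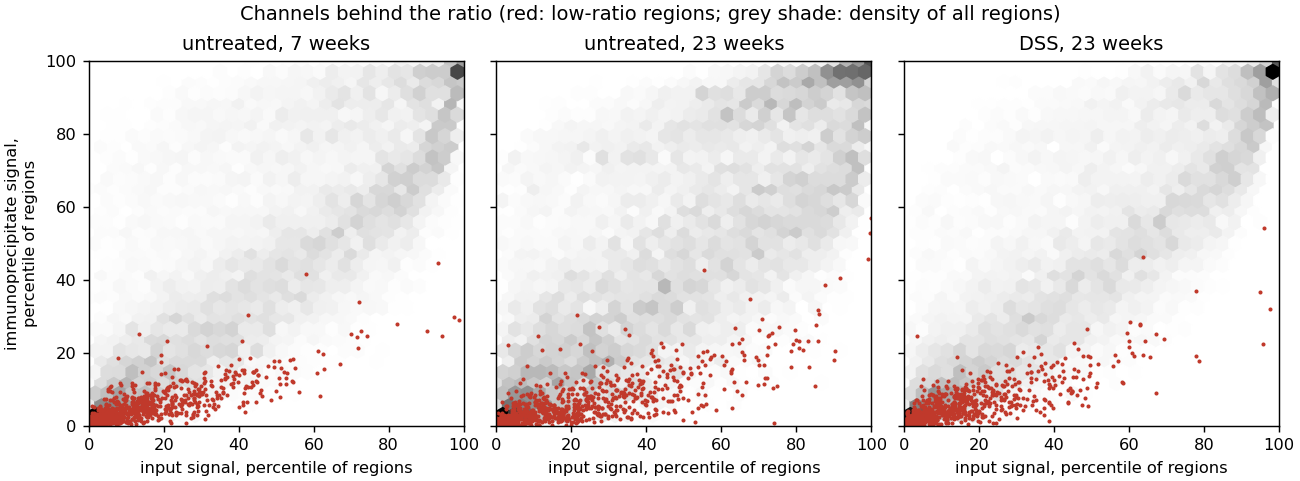
Percentile of immunoprecipitate signal (y axis) against percentile of input signal (x axis) among regions of each array, with each low-ratio region as a red point over the density of all regions in grey. The red points gather in the corner where both channels are dim, at a median input percentile of 11.0, 17.8 and 10.7, and a few reach bright input. Both channels enter the rule that chose the red points.

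Many probes of these regions were close to the detection limit in the immunoprecipitate. There, 555 of the 4561 probes (12.2%) were not well above background in young mice, 970 (21.3%) in older untreated mice and 847 (18.6%) after DSS, against 2236, 4649 and 3565 of all 93029 probes in regions. No member probe was below that limit in the input and none was saturated. Over 50% of a region's probes were not well above background in 21, 52 and 33 members. For such a region the ratio is only bounded from above, and its exact depth has no meaning. Every immunoprecipitate probe was well above background on all arrays in 167 of the 811 members, against 9886 of all 13729 regions.

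Which regions had the lowest ratios depended on how the signals were processed. With loess, which fits the ratio to the mean intensity of both channels within an array, 556 regions met the same rule, and 162 of them were among the 811, or 29.1% of the new list. The median member moved to percentile 18.6 in young mice, 16.9 in older untreated mice and 14.6 after DSS. When percentiles were taken among regions of like input, in 10 classes, 593 regions met the rule and 317 were members (39.1% of the 811 and 53.5% of the new list). Normexp background correction kept 316 (39.0%), and the ratio table deposited by the authors kept 538 (66.3%). The immunoprecipitate is itself part of the intensity that loess fits, so loess can also lessen a true low ratio. Of the 811 members, 85 (10.5%) met the rule under all 4 of these alternatives and 142 under none.

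The members that stayed low under all 4 alternatives were brighter in the input than the rest, at a median mean input percentile of 33.8 against 13.6 over the 811, and alternatives that use intensity took part in their choice. Their median ratio was -2.35 in young mice, -2.36 in older untreated mice and -2.04 after DSS. The lowest of them was the region chr11:77992686-77993512 (827 bp, 8 probes), 912 bp from the next region. It had -3.86 ± 1.27 in young mice, -4.00 ± 1.17 in older untreated mice and -3.33 ± 1.10 after DSS, where ± is the SD over the region's own probes on 1 array. In the immunoprecipitate, 2, 5 and 4 of its 8 probes did not clear the background, so in older untreated mice the value is a bound. On chr6:136482742-136483432 (6 probes) the ratio was -3.69 ± 2.67, -3.35 ± 1.86 and -3.04 ± 1.82. Its probes disagreed more than those of the median member, whose SD was 1.38, 1.20 and 1.15.

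A few members had bright input and an immunoprecipitate that was low relative to it, and they were picked out after their values were seen. The region chr17:14714888-14715384 (5 probes) had the highest input of all members, at mean percentile 98.7. Its input intensity was 2648 in young mice, 5036 in older untreated mice and 2145 after DSS, and its immunoprecipitate 350, 821 and 379, at percentiles 28.9, 56.9 and 32.1 of regions. The ratio was -3.22 ± 1.39, -2.84 ± 1.14 and -2.72 ± 1.49, and no probe was near background. With loess it had the lowest value of all regions on each of the 3 arrays, at percentile 0.0073. The pair chr4:61988303-61988714 and chr4:62005896-62006626 came next in input, with ratios of -2.68, -2.44 and -2.04 in the former and -2.35, -2.27 and -2.46 in the latter. Both stayed at percentile 0.04 or lower with loess. Of the 47 members with a mean input percentile over 50, 34 kept to the rule with loess. Of all 811 members 162 did so, and 556 of all 13729 regions met that rule. A low ratio and a bright input were both part of the choice of these regions. Their low place with loess, which uses both channels, is therefore a description and not a finding.

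Among members of at least 5 probes, the 6 with the lowest mean percentile lay on 6 chromosomes. Beside the regions on chromosomes 11 and 6 above, these were chr13:23592375-23592850, chr12:56220693-56221314, chr4:52459878-52460649 and chr10:42166542-42167182. The chromosome 13 region had -3.71 ± 0.56, -3.86 ± 0.60 and -2.78 ± 0.42 over 5 probes, the tightest spread of the 6. It had 4 of 5 probes not well above background in older untreated mice and 3 of 5 after DSS, where its values are bounds. The chromosome 12 region had -3.63 ± 1.64, -3.49 ± 0.83 and -2.78 ± 1.40 over 8 probes, with 5 of them not well above background in older untreated mice. The chromosome 4 region had -3.29 ± 2.15, -3.46 ± 1.43 and -2.77 ± 1.64, and the chromosome 10 region -3.29 ± 1.51, -3.04 ± 1.37 and -3.04 ± 1.42. With loess the regions on chromosomes 12 and 4 stayed within the lowest 10% on every array. That on chromosome 13 moved to percentile 18.5 after DSS, and that on chromosome 10 to 18.9 in young and 21.8 in older untreated mice. With normexp each of these regions left the lowest 10% in older untreated mice. Their percentiles there were 19.9, 16.3, 16.3 and 17.1 for chromosomes 12, 4, 13 and 10. After DSS those on chromosomes 12, 4 and 13 left it too, at 10.9, 14.8 and 11.9. In young mice that on chromosome 4 did so, at 11.8. In the deposited table all of these regions stayed within the lowest 10% on every array.

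The members had fewer probes and were shorter than regions at large. Their median was 5 probes (3 to 28) and 587 bp, against 6 probes (3 to 42) and 665 bp for all regions. Of regions with 3 probes 148 of 1646 (8.99%, 7.70% to 10.5%) were members, of those with 8 probes 61 of 1157 (5.27%, 4.13% to 6.71%), and of those with 15 or more 6 of 523 (1.15%, 0.527% to 2.48%). The share of members fell with the number of probes also among regions of low input. It was 23.9% for 3 or 4 probes at mean input percentiles up to 20 and 17.6% for 8 or more, and 3.49% and 1.30% above that percentile. A median of few probes varies more, and its part in this trend was not tested.

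**Figure D3:**
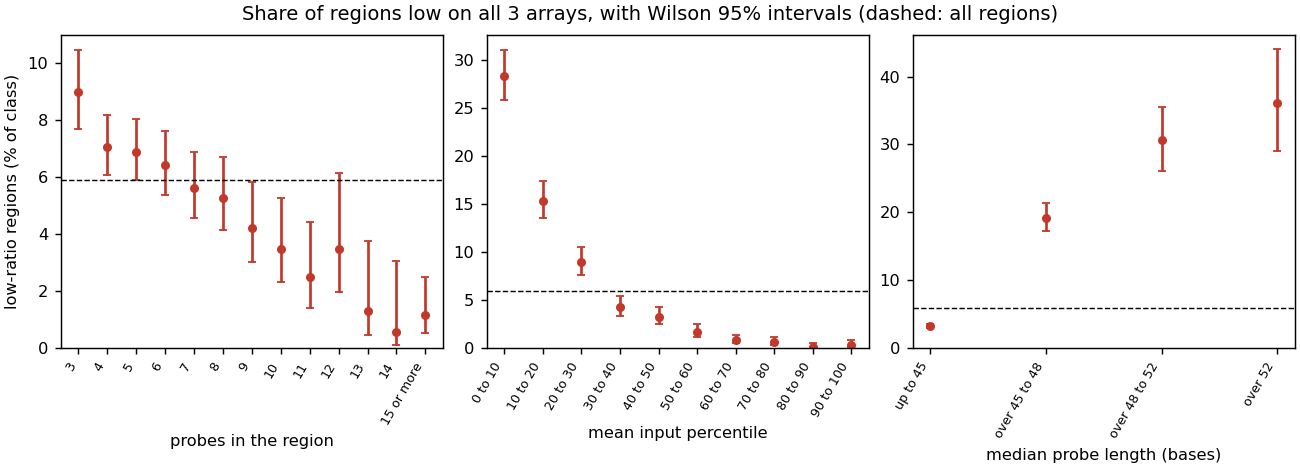
Share of regions that were low on all 3 arrays (y axis, % of the class) by number of probes, by mean input percentile over the arrays and by median probe length in bases, as points with Wilson 95% intervals; the dashed line is the share among all regions, 5.91%. The share fell from 8.99% at 3 probes to 1.15% at 15 or more, fell from 28.3% to 0.262% with input, and rose from 3.21% to 36.2% with probe length.

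Probe length, which the rule did not use, differed between the members and other regions. The array uses probes of 45 bases at most places and longer ones, up to 60, elsewhere. In 431 of the 811 members (53.1%) the median probe was longer than 45 bases, as in 13.8% of all regions. Among regions with a median probe of up to 45 bases, 380 of 11831 (3.21%, 2.91% to 3.55%) were members. The share was 19.1% (17.1% to 21.3%) over 45 and up to 48 bases, 30.6% (26.1% to 35.5%) up to 52, and 55 of 152 (36.2%, 29.0% to 44.1%) above that. The difference was also seen within classes of input. In the lowest 10 percentiles of input the share was 48.7% (44.1% to 53.4%) with long probes and 15.7% (13.2% to 18.6%) with short ones, and above percentile 40 it was 5.77% (4.17% to 7.91%) and 0.774% (0.602% to 0.995%). Among the 85 members that met the rule under all 4 alternatives, 45 (52.9%) had long probes. Of the 1029 regions above percentile 90 on all 3 arrays, 17.7% had them. The part of probe length and of low input in the low ratios was not tested, and the base composition of the probes was not analysed here.

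The largest members spanned over 2 kb each. The region with most probes was chr5:143080100-143083906, with 28 probes over 3807 bp. It had -1.65 ± 1.21 in young mice, -2.01 ± 1.19 in older untreated mice and -1.63 ± 1.09 after DSS, and with loess it lay between percentiles 23.9 and 26.8. The next was chr7:3295623-3298037, with 20 probes and -2.03 ± 1.77, -1.95 ± 1.39 and -1.85 ± 1.55. The regions chr17:70756513-70758734 (18 probes) and chr7:128251262-128253361 (17 probes) had -2.12, -2.33 and -1.41, and -1.69, -1.86 and -1.31. Only the last of these 4 stayed in the lowest 10% on all arrays with loess, at percentiles 2.31, 6.46 and 2.15.

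Within members of at least 5 probes, the ratio was lower at the edges than in the middle. The mean of the outermost 2 probes minus that of the inner probes had a median of -0.93 in young mice, -0.54 in older untreated mice and -0.69 after DSS over 499 members. The other 9259 regions of that size had -0.46, -0.32 and -0.33. The edge was above the inner probes in 107, 140 and 119 of the 499. Within 100 bp of the centre the median probe of these members was at -1.82, -2.15 and -1.49, and between 400 and 500 bp from it at -2.53, -2.58 and -2.13. The former probes came from 465 members and the latter from 160, so the 2 distances do not cover the same regions. Between 600 and 700 bp, with 33 members, the median was -2.29, -2.32 and -1.83. The probes of a member also disagreed more than those of other regions, with a median SD of 1.38, 1.20 and 1.15 against 0.94, 0.89 and 0.76 over all regions. Of the member probes 4013 (88.0%) lay below the array's median probe on all 3 arrays. In 393 members (48.5%) every probe did so, against 10.3% of all regions. The rule chose regions by the low median of these same probes, so both shares describe the choice and are not a finding.

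**Figure D4:**
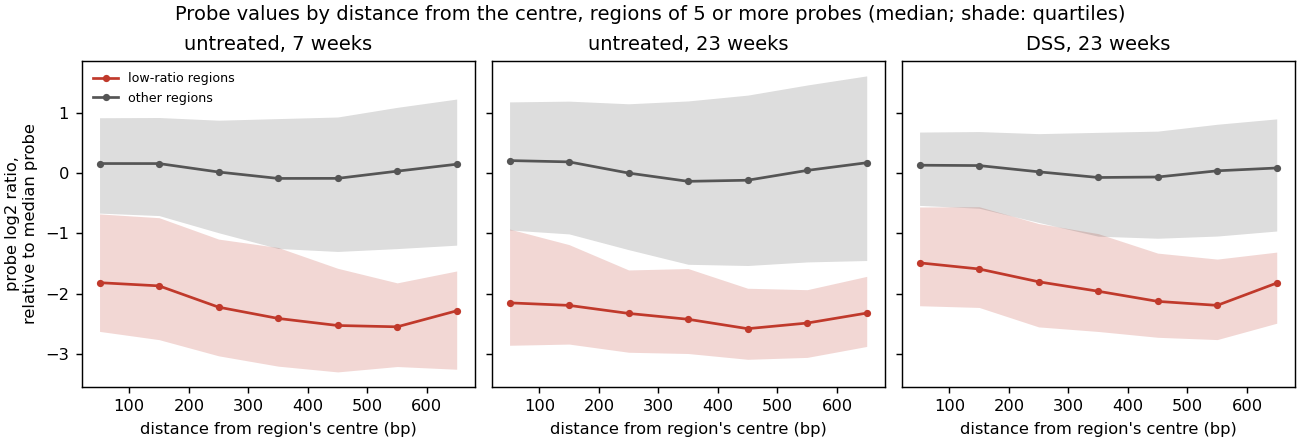
Probe log2 ratio, with the array's median probe at 0 (y axis), by distance from the region's centre in bp (x axis) for regions of 5 or more probes, as medians with quartiles shaded, in red for low-ratio regions and dark grey for the others. In the low-ratio regions the median was -1.82 within 100 bp of the centre and -2.53 at 400 to 500 bp in young mice, and -1.49 and -2.13 after DSS. These distances held probes of 465 and 160 low-ratio regions, so the points do not cover the same regions throughout.

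Probes that belong to no region gave a measurement outside the rule. Of 1470 such autosomal probes, 23 lay within 2 kb of a member, and their median ratio was -1.56 in young mice, -1.87 in older untreated mice and -1.74 after DSS. The 201 probes within 2 kb of another region had 0.10, 0.26 and 0.06. Out to 20 kb the 106 probes near a member had -0.87, -0.96 and -0.79, and the 701 near another region -0.20, -0.18 and -0.14. Low values were therefore also seen in probes close to the members, with few probes at 2 kb, and a probe near regions of both kinds counts in both sets. The input, length and background of these probes are not set beside their ratios, and the cause was not tested.

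Most members stood alone. Joined over up to 20 kb, they formed 774 groups, of which 747 held 1 member, 21 held 2, 5 held 3 and 1 held 7. The distance to the nearest other region had a median of 22364 bp for members and 26198 bp for all regions. Of the regions whose nearest neighbour lay within 5 kb and was a member, 18 of 112 (16.1%, 10.4% to 24.0%) were members. Where that neighbour was not a member, 97 of 2304 (4.21%, 3.46% to 5.11%) were. Without a single interval of chromosome 13, described next, the share beside a member was 10 of 103 (9.71%, 5.36% to 17.0%) against 4.17%. Beyond 20 kb and up to 100 kb, a member as nearest neighbour went with 6.53% and another region with 6.63%. Members that are each other's nearest region both count in these shares, so the intervals beside a member are too narrow.

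The densest group of members lay on chromosome 13. The group of 7, at chr13:23538477-23592850, took in all 7 regions of that span, with 27 probes. Its ratios ran from -4.62 to -1.63 in young mice (median -3.29), from -4.43 to -2.18 in older untreated mice (median -3.17) and from -3.11 to -1.68 after DSS (median -2.58). A wider interval around it, chr13:21723611-23771457, was chosen after its values were seen. In it 19 of 28 regions (67.9%) were members, against 26 of the other 486 regions of the chromosome (5.35%), and it held 9 of the 20 members with the lowest mean percentile. The lowest region of each of the 3 arrays was the same one, chr13:23691502-23692124 (3 probes), with -4.91 ± 1.34, -4.68 ± 0.44 and -4.55 ± 1.61. On each array at least 2 of its 3 immunoprecipitate probes did not clear the background, so these values are bounds.

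The 19 members of the interval were dim and sparsely tiled. They had 3 to 8 probes and a median mean input percentile of 1.84. Of the 19, 4 met the rule with loess, 3 with normexp, 12 within classes of like input and 13 in the authors' deposited table, and none did so under all 4. Not every region there was low. The region chr13:22013259-22014685 (9 probes) had 2.09 in young mice, 1.55 in older untreated mice and 0.52 after DSS. The region chr13:23403263-23404136 (7 probes) had 1.92, 2.30 and 1.57.

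**Figure D5:**
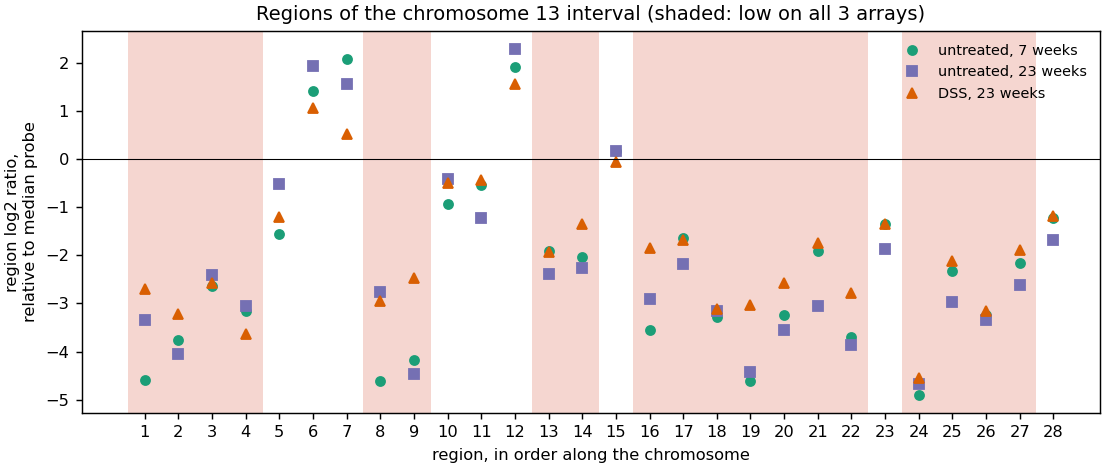
Region log2 ratio, with the array's median probe at 0 (y axis), for the 28 regions of the chromosome 13 interval in their order along the chromosome (x axis, not to scale), with circles for young, squares for older untreated and triangles for DSS-treated mice. The 19 shaded regions were low on all 3 arrays, and among the unshaded ones the highest value was 2.30.

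Of the 5 groups of 3 members, 1 more lay in that interval, at chr13:23746085-23769891, with medians of -2.32, -2.96 and -2.12. The other groups were chr17:35429860-35446527 (-2.08, -2.37 and -1.47), chr12:86361061-86376177 (-2.33, -2.16 and -1.82), chr8:87722255-87747449 (-2.14, -2.60 and -1.74) and chr15:102154016-102178918 (-1.90, -2.22 and -1.51). By chromosome, the share of regions that were members was highest on chromosome 13 (45 of 514, 8.75%, 6.61% to 11.5%), chromosome 17 (56 of 667, 8.40%, 6.52% to 10.7%) and chromosome 7 (78 of 1031, 7.57%, 6.10% to 9.34%). It was lowest on chromosome 1 (33 of 770, 4.29%, 3.07% to 5.96%). Outside the interval, chromosome 13 had 5.35%.

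Whether the low-ratio regions changed with age was addressed by untreated mice at 23 against 7 weeks. The median difference over the members was -0.10 ± 0.34 (SD over 811 regions), against 0.04 over all regions, and 284 were higher at 23 weeks. Differences of at least 1, a 2-fold change, were seen upwards in 6 members and downwards in 6, where 0.168% and 0.233% of all regions passed. At a threshold of 0.5 there were 36 and 86, where 8.26% and 4.78% passed. The members were chosen on these arrays, so nothing is read from these counts, and that of higher members has no share over all regions beside it. With the arrays scaled to a common interquartile range, the median difference turned to 0.33, against 0.03 over all regions. Then 43 members were higher by at least 1 and 0 lower, where 0.634% and 0.0801% of all regions passed. The direction therefore depends on the scaling.

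Whether colitis left a trace in these regions was addressed by setting the DSS array against the older untreated one. The members were less low after DSS, by a median of 0.42 ± 0.34 against 0.01 over all regions, and 727 of 811 were higher. A rise of at least 1 was seen in 42 members and a fall in 0, where 1.16% and 3.65% of all regions passed. At a threshold of 0.5 there were 318 and 2, where 12.5% and 25.3% passed. Nothing is read from these counts either, and the counts of higher members again have no share over all regions beside them. With scaling the sign turned, to a median of -0.44 against -0.09 over all regions, with 84 members higher. By at least 1, 0 members were up and 76 down, where 0.146% and 1.41% of all regions passed. With quantile normalisation the median was 0.04, against -0.01 over all regions, and 441 members were higher. Both comparisons use the array of untreated mice at 23 weeks. DSS against young mice, which differ in age and treatment, gave a median of 0.32 before scaling, with 19 members up and 0 down by at least 1, where 0.306% and 0.663% of all regions passed. After scaling the median was -0.08, with 3 up and 3 down, where 0.291% and 0.444% passed.

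Of the 12 ends of the scaled differences, 6 for age and 6 for DSS, 5 kept one sign in all 6 ways of taking the difference, 2 for age and 3 for DSS. The 2 for age, chr4:129610050-129610331 and chr9:108418499-108418959, are also among the 3 for DSS, and the comparisons share the older untreated array. The region chr15:78001472-78001857 (3 probes) had -2.39 ± 1.501 in young, -2.88 ± 0.85 in older untreated and -1.54 ± 0.66 in DSS-treated mice. DSS minus older untreated was 1.05 before scaling, 0.51 with scaling, 0.57 with loess and 0.16 with normexp.

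Both regions that follow were higher in older untreated than in young mice, by 1.34 and 1.28 before scaling and 2.18 and 2.02 with it. Lower values in DSS-treated than in older untreated mice were seen in chr4:129610050-129610331 (3 probes), with -3.68 ± 1.03, -2.12 ± 0.89 and -2.79 ± 0.88. The difference was -0.68 before scaling and with loess, -1.94 with scaling and -0.15 with normexp. The region chr9:108418499-108418959 (3 probes) had -4.33 ± 2.12, -3.05 ± 0.97 and -3.43 ± 2.34, with -0.39, -0.49, -2.04 and -0.05 before scaling, with loess, with scaling and with normexp. In young mice 2 of the 3 probes of each were not well above background, so the young values are bounds, as are the DSS values, with 3 and 2 such probes, and their differences have no exact size.

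The others turned. The region chr7:143632158-143632594 (4 probes), an end of the age comparison, had -1.92 ± 1.81, -2.91 ± 1.40 and -1.55 ± 1.48. Older untreated minus young was -0.93 before scaling, -0.52 with it, -0.68 with loess and 0.02 with normexp. The region chr13:23691502-23692124, the lowest on each array, had the most negative scaled difference between DSS and older untreated, -2.20, against 0.13 before scaling, and its values are bounds. The region chr18:35724430-35725335 (7 probes) had -2.26 ± 1.31, -3.22 ± 1.06 and -1.66 ± 1.08. Its difference between DSS and older untreated was 1.55 before scaling, 0.68 with it and 0.10 with normexp, but -0.37 in the authors' deposited table. The region chr11:3996584-3997010 (5 probes) had -1.99 ± 1.91, -3.14 ± 1.77 and -1.65 ± 1.52, and older untreated minus young was -1.15 before scaling, -0.45 with it and 0.51 with normexp. In older untreated mice 3 of its 5 probes were not well above background, so that value is a bound. Also in the age comparison, chr13:22042594-22043757 (5 probes) had -4.61 ± 1.47, -2.77 ± 0.49 and -2.94 ± 0.56, a difference of 1.26 before scaling and 2.14 with it, and of -0.60 in the authors' deposited table. Its young and DSS values are bounds, with 3 and 4 of 5 probes not well above background, so that the difference has no exact size. The region chr14:78160382-78160707 (3 probes) had -1.87 ± 2.48, -3.27 ± 1.64 and -1.504 ± 2.25, with -0.64 before scaling, -0.53 with it and 0.04 with loess. The region chr13:23453099-23453405 (3 probes) had -2.03 ± 0.97, -2.26 ± 1.06 and -1.35 ± 0.71, and DSS minus older untreated was 1.04 before scaling, 0.74 with it and -0.06 with normexp. With 1 array per group none of these differences has a replicate check, and the groups cannot be told apart from the slides and scans.

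Among the members the order of the regions was only partly shared between arrays. Over the 811 regions, which share their probes between arrays and span a narrow range by their choice, Pearson's r was 0.64 between the untreated arrays, 0.55 between DSS and older untreated, and 0.73 between DSS and young. Spearman's rho was 0.58, 0.47 and 0.65. Over all 13729 regions, with their full range of ratios, Pearson's r was 0.959, 0.944 and 0.961 and Spearman's rho 0.957, 0.944 and 0.958.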

How the data were processed

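H3K27me3 immunoprecipitate (Cy5) and input (Cy3) were hybridised together on 3 Agilent CpG island arrays, 1 per group, each from a pool of 3 mice. The deposited scanner files hold spot intensity, extracted with Agilent Feature Extraction 10.7.3.1 per the file headers and 9.1 per the submitters' processing notes. Processed signals were background-subtracted and dye-normalised per the file headers. The log10 ratio deposited beside them was not used. A deposited table with a linear ratio per probe, with no account of its making in the sources used here, served as an alternative.

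From 94499 probes on 19 autosomes, log2 of red over green processed signal was taken and the median probe of an array set to 0; loess and quantile steps were kept for alternatives. Region rule, probe minimum and percentile limit are given above. Probes were not filtered on flags or background. A difference between arrays is the median of a region's per-probe differences, which can depart from the difference of the printed medians. Wilson 95% intervals cover counting error only. Scaling used a common interquartile range of 2.03. Normexp (offset 50) and loess were run with limma 3.58.1 in R 4.3.3, the rest with Python 3.11.15. The code for the rule and differences was run on simulated log ratios with planted shifts and the same noise on every array. These held no channel intensities or background, so they cannot show how sound the rule is on these arrays. With 1 array per group there is no test across arrays, and their number limits the precision.

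Members and lists were chosen with earlier results of these data known. Named regions followed a rule: the 6 members of at least 5 probes with the lowest mean percentile, the 4 with most probes, the largest groups within 20 kb, the 3 members at either end of the scaled differences of each main comparison, and 2 regions on either side of the limit. The bright-input regions and the chromosome 13 interval were picked after seeing values, and the members low under all 4 of loess, normexp, classes of input and the deposited table were sorted by mean percentile in the same way. For median differences, an alternative was taken as unchanged when it moved by less than the SD over members.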

Additional observations from a re-analysis of the deposited data

Results flagged for a closer look

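Data outside the autosomal regions also held low ratios. Of 390 regions on chromosome X, which the rule leaves out, 13 (3.33%, Wilson 95% interval 1.96% to 5.62%) lay at or under the autosomal limits on all 3 arrays, against 5.91% of autosomal regions. Among 442 probes without a position, 19 (4.30%) were in the lowest 10% of probes on all 3 arrays, against 6.38% of 94499 autosomal probes. Neither count exceeds its autosomal counterpart.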

How the results depend on the processing

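Of 17 alternatives to the rule, 15 gave a number of regions within 1.5 times the 811, and the exceptions follow from the limit itself (347 at percentile 5 and 1916 at percentile 20). A like number does not mean the same regions. Loess kept 162 of the 811, and 444 were kept when probes near background in either channel were left out. Leaving out an array gave 921 to 1067 regions. Percentiles within classes of input, and rules limited to short probes (669 regions) or to regions with every immunoprecipitate probe above background (554), were chosen after seeing the data.

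The median difference of untreated mice at 23 against 7 weeks reversed with scaling (0.33) and normexp (0.36), and was -0.10 in the main setting, -0.03 with quantile normalisation and -0.19 with loess. That of DSS against untreated mice at 23 weeks reversed with scaling (-0.44) and shrank from 0.42 with quantile normalisation (0.0357), normexp (0.0200) and loess (0.14). That of DSS against 7 weeks reversed with scaling (-0.0833), quantile normalisation (-0.0035) and loess (-0.0181). Members higher and lower by at least 1 at 23 than at 7 weeks numbered 43 and 0 after scaling, 2 and 5 after quantile normalisation, 0 and 1 after loess, 1 and 0 with normexp, 32 and 22 in the deposited table, and 36 and 86 at a threshold of 0.5. For DSS against untreated mice at 23 weeks they numbered 0 and 76, 4 and 3, 2 and 0, 0 and 0, 82 and 23, and 318 and 2 in the same order. For age all 13729 regions gave 87 and 11, 18 and 19, 13 and 11, 1 and 3, 126 and 130, and 1134 and 656. For DSS they gave 20 and 194, 39 and 61, 20 and 22, 0 and 41, 349 and 838, and 1720 and 3470. The members were chosen on these arrays, so nothing is read from their counts. The causes of the differences between settings were not tested. No paired analysis was possible because each group held 1 array.

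Low input was more frequent than over all regions in each setting except loess, where 8.81% of regions meeting the rule had a mean input percentile of at most 20, against 18.1% of all regions. Long probes stayed more frequent than over all regions in every setting that allowed them (28.4% with loess to 67.4% at percentile 5). The share with long probes moved with 11 of the 17 alternatives and that with low input with 10. Some of the lowest ratios are bounds, where most of a region's immunoprecipitate probes were not well above background. This held for 21 members in young mice, 52 in older untreated mice and 33 after DSS.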
